A study of Homo sapiens with 8 samples.

Results

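The genes described here form the core of the machinery that takes a cell from G1 into S phase: the cyclins CCND3, CCNE1 and CCNE2, the kinases CDK4, CDK6 and CDK2, the phosphatase CDC25A, and the CDK inhibitors CDKN1B, CDKN2C and CDKN2D. They were taken by name, with earlier results of these data known. Each was matched by its Ensembl identifier to the reads counted on its own strand, giving 10 genes of 78932 in the deposited tables. All 10 had enough counts to be tested, among 12618 tested genes. Their RNA was measured in HCT116, a human colorectal cancer line, engineered so that the NUDT21 protein carries a dTAG degradation tag. NUDT21 is the small subunit of CFIm, a factor that binds pre-mRNA upstream of poly(A) sites. The dTAGV1 molecule recruits the cell's ubiquitin machinery to tagged proteins. In 4 libraries the cells had received the solvent DMSO together with JTE-607, an inhibitor of the pre-mRNA cleavage enzyme CPSF73, and in the other 4 they had received dTAGV1 together with JTE-607. Both groups therefore carried the tag and the inhibitor, no library lacked either, and doses, times and the number of clones are not given in the labels. The comparison asks which RNA levels differ when the tagged factor is targeted in cells that also received the cleavage inhibitor. The labels do not give the order in which dTAGV1 and JTE-607 were added.

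In G1, D-type cyclins bind CDK4 and CDK6, and these complexes begin the phosphorylation of the retinoblastoma (RB) protein, which otherwise holds back E2F transcription factors. Cyclin E then activates CDK2, which completes that phosphorylation and helps start DNA replication, while CDC25A removes inhibitory phosphates from CDK2. Inhibitors of the INK4 family, such as CDKN2C and CDKN2D, bind CDK4 and CDK6, and those of the CIP/KIP family, such as CDKN1B, act mainly on cyclin-CDK2 complexes. Genes for E-type cyclins and CDC25A are themselves known E2F targets.

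Libraries held 3447842 to 4291256 reads counted to genes on the gene's strand. Since nothing in the labels says that replicates came from separate cultures, p-values measure only the spread between these libraries, which may be technical. NUDT21 itself had 104 to 139 counts in DMSO libraries and 15 to 43 in dTAGV1 libraries (log2 fold change -1.95). The tag acts on the protein, so this RNA level is no check of the labels. Among epithelial markers, 6 averaged at least 10 counts and were tested, while VIL1 had at most 3 counts in any library. Of these 6, KRT18, KRT19 and CLDN4 were lower with dTAGV1 and EPCAM was higher. The summed epithelial level was 1685 to 1974 counts per 1000000 counts after scaling (CPM) with DMSO and 1354 to 1459 CPM with dTAGV1. Summed fibroblast, leucocyte and endothelial markers stayed at or under 20.8 CPM in every library, and most of the fibroblast reads were from COL1A1, with COL3A1, DCN and LUM at 0. Reads that matched no gene on the counted strand made up 30.1% to 33.7% of uniquely mapped reads with DMSO and 35.9% to 37.4% with dTAGV1. This share and the epithelial sum moved with the treatment, and their part in the values below was not tested.

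Relative to the other counted genes, most of these genes had less RNA with dTAGV1. Of the 10, 7 were lower and 1 was higher at an adjusted p under 0.05 (edgeR, adjusted over all tested genes). In all tested genes, 57.9% were called in either direction, 28.5% lower and 29.4% higher. Decreases of more than 2-fold were called for 5 of the 10, CCNE1, CCNE2, CCND3, CDK2 and CDC25A, against 9.23% of all tested genes. None of the 10 rose more than 2-fold, as 7.35% of all tested genes did. The median log2 fold change of the 10 was -1.03, beside 0.01 over all tested genes. Because the 10 were chosen with earlier results of these data known, these shares describe them and are no independent test. For 7 of the 10, all 4 dTAGV1 libraries lay on the same side of all 4 DMSO libraries, which held for 50.9% of tested genes. In bulk RNA, fewer cells in a phase that expresses a gene and less RNA of that gene per cell cannot be told apart.

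**Figure D1:**
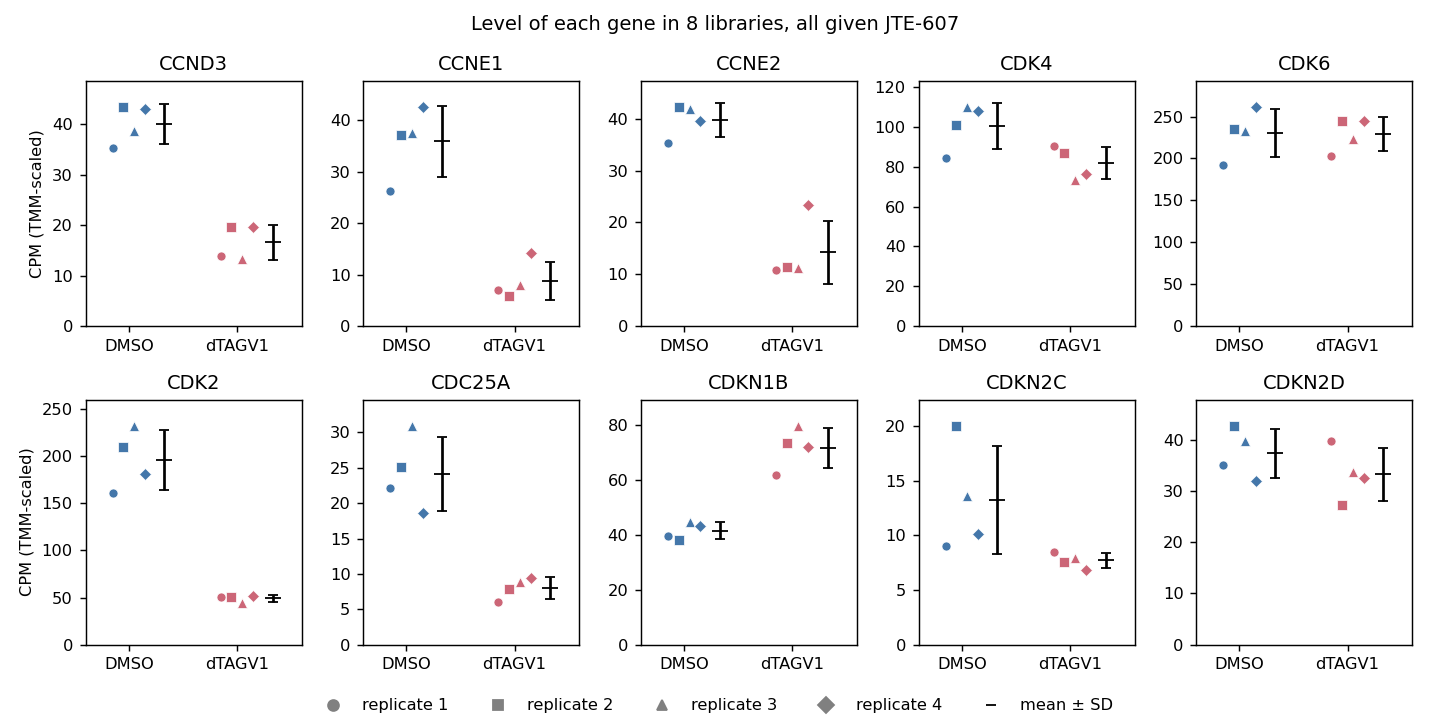
Level of each of the 10 genes, in CPM after TMM scaling, in the 4 DMSO and 4 dTAGV1 libraries (marker shapes give the replicate number, bars the mean ± SD). Groups are well separated for CCND3, CCNE1, CCNE2, CDK2 and CDC25A, inverted for CDKN1B, and overlapping for CDK4, CDK6 and CDKN2D.

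**Figure D2:**
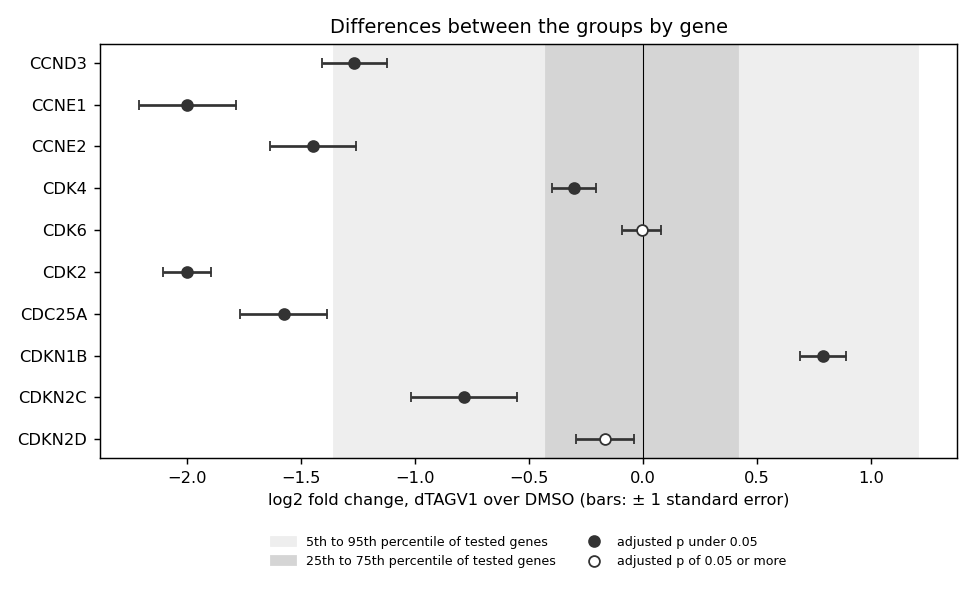
The log2 fold change of each gene, dTAGV1 over DMSO, with bars of 1 standard error, over bands from the 5th to the 95th percentile (-1.36 to 1.21) and the 25th to the 75th percentile (-0.43 to 0.42) of all 12618 tested genes. CCNE1 at -1.999 and CDK2 at -2.001 lie farthest out, and CDKN1B at 0.79 is the only gene of the 10 called higher.

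CCND3 encodes cyclin D3, a partner of CDK4 and CDK6 (ENSG00000112576; GRCh38 chromosome 6, 41934933 to 42050357, minus strand). Its level was 35.3, 43.4, 38.7 and 43.0 CPM in DMSO replicates 1 to 4, and 13.9, 19.6, 13.3 and 19.6 CPM in dTAGV1 replicates 1 to 4. Every dTAGV1 library lay below every DMSO library. This was a log2 fold change of -1.27 ± 0.14 (SE; edgeR, adjusted p = 4.63e-08). CCND1, the other D-type cyclin expressed here, fell from 669 ± 57.6 to 402 ± 33.5 CPM (SD, n = 4 per group), a log2 fold change of -0.74 (edgeR, adjusted p = 9.62e-09). With reads counted irrespective of strand the CCND1 value was -0.41. CCND2, the third D-type cyclin gene, had a single read in all 8 libraries together.

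CCNE1 encodes cyclin E1, which activates CDK2 at the end of G1 (ENSG00000105173; chromosome 19, 29811898 to 29824308, plus strand). It was measured at 26.2, 37.1, 37.6 and 42.5 CPM with DMSO and at 7.09, 5.74, 7.95 and 14.2 CPM with dTAGV1. The groups did not overlap, although dTAGV1 replicate 4 stood above the other 3 of its group. CCNE1 had a log2 fold change of -1.999 ± 0.21 (SE; edgeR, adjusted p = 1.39e-07). Only 165 of the tested genes had a more negative value. Counts were as low as 19 reads in a dTAGV1 library, so the size of this change is less precise than that of CDK2.

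CCNE2 encodes the paralog cyclin E2 (ENSG00000175305; chromosome 8, 94879770 to 94896678, minus strand). DMSO libraries gave 35.3, 42.2, 41.9 and 39.6 CPM, and dTAGV1 libraries 10.8, 11.5, 11.2 and 23.4 CPM. Here too dTAGV1 replicate 4 was the highest of its group, and it lay below all DMSO libraries. CCNE2 had a log2 fold change of -1.45 ± 0.19 (SE; edgeR, adjusted p = 2.01e-06), and of -1.85 without that library. CCNE1 was likewise lower, at -2.38, when dTAGV1 replicate 4 was left out. This library had the smallest share of unmapped reads, 20.4%, and was the highest of its group for 5 of the 10 genes. DMSO replicate 1 was the lowest of its group for 7 of the 10. These orders were not counted over all tested genes. With both libraries left out, the log2 fold change was -2.51 for CCNE1 and -1.90 for CCNE2.

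Of the G1 kinases, CDK2, the partner of cyclin E, changed most (ENSG00000123374; chromosome 12, 55966769 to 55972784, plus strand). Its level was 161, 210, 233 and 182 CPM with DMSO and 50.5, 50.1, 43.9 and 51.3 CPM with dTAGV1. The lowest DMSO library was more than 3 times the highest dTAGV1 library. Its log2 fold change was -2.001 ± 0.10 (SE; edgeR, adjusted p = 1.82e-13), from 149 to 872 reads per library. PMEL overlaps CDK2 on the opposite strand, where at most 3 reads were counted.

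CDK4, a partner of D-type cyclins, moved far less (ENSG00000135446; chromosome 12, 57747727 to 57756013, minus strand). Levels were 84.4, 101, 110 and 108 CPM with DMSO, and 90.4, 87.0, 73.4 and 76.6 CPM with dTAGV1. DMSO replicate 1 fell among the dTAGV1 libraries, so the groups overlapped. CDK4 was nevertheless called lower, with a log2 fold change of -0.30 ± 0.10 (SE; edgeR, adjusted p = 0.00883).

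CDK6, its paralog, showed no difference that passed the test (ENSG00000105810; chromosome 7, 92604921 to 92836594, minus strand). It was measured at 192, 235, 233 and 261 CPM with DMSO and at 203, 245, 224 and 245 CPM with dTAGV1. The ranges were almost the same. A log2 fold change of -0.01 ± 0.09 resulted (SE; edgeR, adjusted p = 0.955), and its sign turned when DMSO replicate 4 or dTAGV1 replicate 1 was left out, to 0.05 and 0.04.

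CDC25A, the phosphatase that activates cyclin-CDK2 complexes (ENSG00000164045; chromosome 3, 48157146 to 48188402, minus strand), was lower in every dTAGV1 library. DMSO libraries gave 22.1, 25.1, 30.9 and 18.5 CPM, and dTAGV1 libraries 5.95, 7.85, 8.84 and 9.46 CPM. CDC25A was well separated between groups, and its log2 fold change was -1.58 ± 0.19 (SE; edgeR, adjusted p = 1.27e-07). Of its relatives, CDC25C, which acts at mitotic entry, was lower by a log2 fold change of -1.46 (edgeR, adjusted p = 5.44e-05), and CDC25B, at -0.12, did not pass (adjusted p = 0.284). CDC25B was named here after its value was seen.

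The inhibitors did not move together. CDKN1B encodes p27, an inhibitor of cyclin E-CDK2 (ENSG00000111276; chromosome 12, 12715058 to 12722371, plus strand), and it rose. Its level was 39.6, 38.1, 44.6 and 43.3 CPM with DMSO and 61.8, 73.1, 79.5 and 71.7 CPM with dTAGV1. All dTAGV1 libraries exceeded all DMSO libraries. CDKN1B increased by 0.79 ± 0.10 on the log2 scale (SE; edgeR, adjusted p = 3.97e-07). CDKN1A, which encodes the related inhibitor p21, rose from 702 ± 106 to 1430 ± 130 CPM (SD, n = 4 per group), a log2 fold change of 1.03 (edgeR, adjusted p = 1.42e-08).

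CDKN2C encodes the INK4 inhibitor p18 (ENSG00000123080; chromosome 1, 50960745 to 50974633, plus strand). It was the least expressed of the 10, at 9.02, 20.02, 13.6 and 10.1 CPM with DMSO and 8.50, 7.55, 7.95 and 6.86 CPM with dTAGV1. The groups were separate by a narrow margin, and the DMSO libraries were widely spread. CDKN2C had a log2 fold change of -0.78 ± 0.23 (SE; edgeR, adjusted p = 0.00536). Without DMSO replicate 2, the highest library, it was -0.51 and no longer passed (edgeR, adjusted p = 0.0600).

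CDKN2D encodes the INK4 inhibitor p19 (ENSG00000129355; chromosome 19, 10566462 to 10569059, minus strand). Values were 35.0, 42.7, 39.8 and 31.9 CPM with DMSO and 39.7, 27.2, 33.6 and 32.4 CPM with dTAGV1. The groups overlapped over most of their range. With a log2 fold change of -0.17 ± 0.13, CDKN2D did not pass (SE; edgeR, adjusted p = 0.270). The other INK4 genes, CDKN2A and CDKN2B, had values of the opposite sign to CDKN2C. CDKN2B, which encodes p15, rose from 37.8 ± 2.88 to 148 ± 9.59 CPM (SD, n = 4 per group), a log2 fold change of 1.97 (edgeR, adjusted p = 7.31e-15). CDKN2A, named after its values were seen, rose by 0.60 (edgeR, adjusted p = 2.01e-06). It encodes p16 and, from a different first exon, p14ARF, and the counts at their shared 3′ exons do not separate them.

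Whether members moved by unequal amounts was tested on 6 ratios of 2 genes within a library, which do not depend on how libraries are scaled. The p-values are from 2-sided exact permutation tests of 4 libraries against 4, where 0.0286 is the smallest p possible, and were adjusted over the 6 ratios by the Benjamini-Hochberg method. The ratio of CDKN1B to CDK2 was 6.84 times higher with dTAGV1, as its log2 value went from -2.23 ± 0.22 to 0.54 ± 0.23 (SD, n = 4 per group; exact permutation p = 0.0286, adjusted 0.0571). Since CDKN1B rose and CDK2 fell without overlap, this ratio was bound to separate the groups, and its p adds nothing to those results. The ratio of CCND3 to CDK6 went from -2.51 ± 0.09 to -3.80 ± 0.21 (SD, n = 4 per group; exact permutation p = 0.0286, adjusted 0.0571). The log2 ratio of CCNE1 to CCNE2 went from -0.16 ± 0.22 to -0.69 ± 0.21 (SD, n = 4 per group; exact permutation p = 0.0286, adjusted 0.0571). The groups did not overlap in these 3 ratios, yet none passed after adjustment. With only 3 of the 6 ratios at the smallest p possible, their adjusted p cannot be below 0.0571, however large the difference. Without DMSO replicate 1 these 3 and the CDKN2C to CDKN2D ratio each had an adjusted p of 0.0429. That value too depends on how many ratios reach the smallest p.

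The other 3 ratios overlapped between groups. The log2 ratio of CDKN2C to CDKN2D differed by -0.53 (exact permutation p = 0.0571, adjusted 0.0857). That of CDK4 to CDK6 differed by -0.30 (exact permutation p = 0.114, adjusted 0.137). The ratio of CCNE1 to CDK2, which form a complex as proteins, differed by -0.09 on the log2 scale (exact permutation p = 0.771, adjusted 0.771). Its log2 value had an SD of 0.54 among dTAGV1 libraries, which does not show that the 2 genes fell alike.

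**Figure D3:**
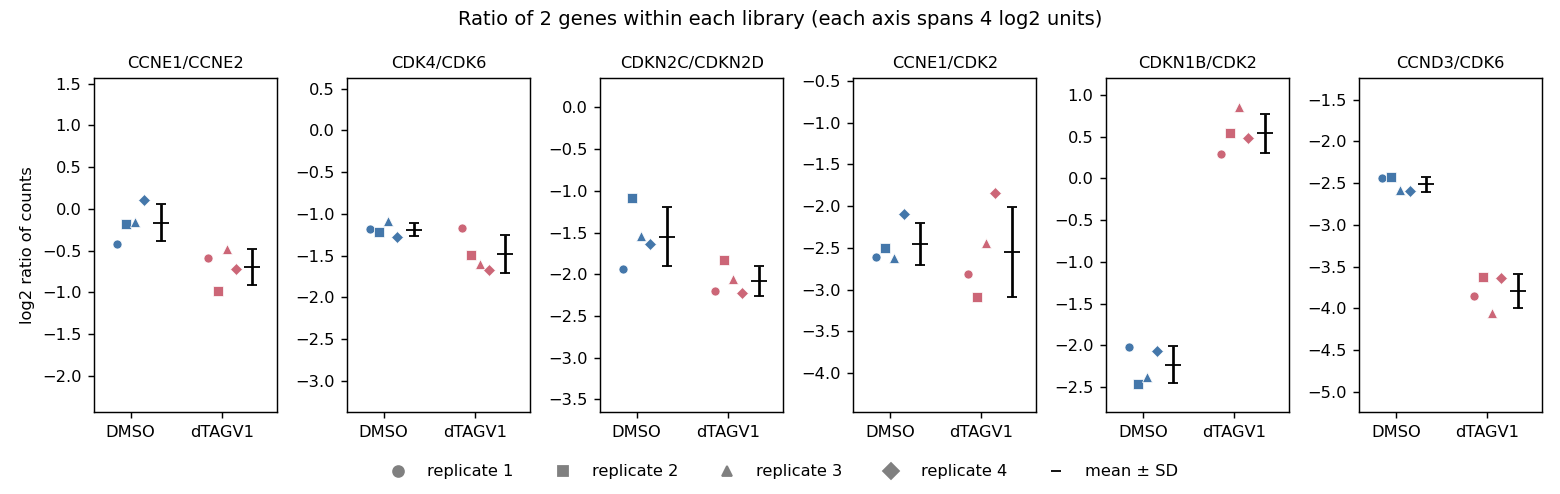
The log2 ratio of counts of 2 genes within each library, for the 6 pairs (marker shapes give the replicate number, bars the mean ± SD, and each axis spans 4 log2 units). CDKN1B/CDK2 lies between -2.46 and -2.02 with DMSO and between 0.29 and 0.86 with dTAGV1, whereas the CCNE1/CDK2 libraries of the 2 groups are intermixed.

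CCNE2 and CDK4 each overlap genes on the other strand at their 3′ ends, where these libraries are read. INTS8 ends 1977 bases inside CCNE2, and TSPAN31 ends 2485 bases inside CDK4. Opposite-strand reads within CCNE2 numbered 115 to 127 with DMSO and 103 to 164 with dTAGV1, with a log2 fold change of 0.01 (edgeR on opposite-strand counts, adjusted p = 0.952). Within CDK4 they rose from 46 to 57 reads with DMSO to 73 to 104 with dTAGV1, a log2 fold change of 0.72 (edgeR on opposite-strand counts, adjusted p = 0.000555). Of all genes with enough opposite-strand reads, 48.4% were called. TSPAN31 on its own strand rose by 0.84 on the log2 scale (edgeR, adjusted p = 1.58e-05), the opposite direction to CDK4. The other 8 genes had at most 5 opposite-strand reads in any library.

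**Figure D4:**
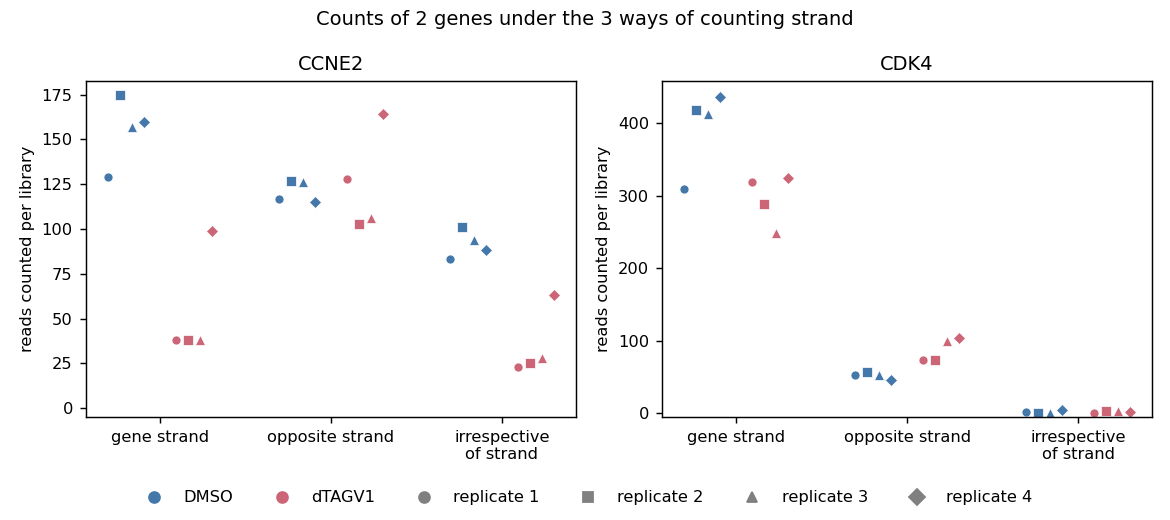
Reads per library for CCNE2 and CDK4 on the gene's strand, on the opposite strand and irrespective of strand (colours give the treatment, marker shapes the replicate number). CDK4 drops to between 1 and 4 reads when strand is ignored, a column in which a read lying in 2 genes is given to neither.

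Sequences upstream of the genes are shown so that the motifs described next can be seen in place. The RefSeq table for GRCh38.p14 matched 8 of the 10 genes, with 13 starts among them, and CDK2 and CCNE2 were not searched. The windows searched were the 250 bases before each start, on both strands. Printed below, 5′ to 3′ on the gene's strand, are the parts of 3 windows that hold no annotated exon, for CCNE1 and CDC25A, which fell, and for CDKN2D, which did not pass the test. Capitals mark the E2F octamer TTTGGCGC, the CCAAT box (CCAAT or its complement ATTGG) and the GC box (GGGCGG or its complement CCGCCC).
CCNE1, chr19:29811741-29811897, plus strand: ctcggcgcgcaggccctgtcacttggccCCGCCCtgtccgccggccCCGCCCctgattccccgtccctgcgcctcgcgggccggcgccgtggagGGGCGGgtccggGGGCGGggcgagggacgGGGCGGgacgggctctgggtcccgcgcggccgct
CDC25A, chr3:48188418-48188667, minus strand: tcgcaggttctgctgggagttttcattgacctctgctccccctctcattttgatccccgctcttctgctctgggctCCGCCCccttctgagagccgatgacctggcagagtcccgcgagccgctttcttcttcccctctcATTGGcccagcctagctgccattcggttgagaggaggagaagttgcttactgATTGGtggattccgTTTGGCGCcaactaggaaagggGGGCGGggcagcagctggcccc
CDKN2D, chr19:10569060-10569229, minus strand: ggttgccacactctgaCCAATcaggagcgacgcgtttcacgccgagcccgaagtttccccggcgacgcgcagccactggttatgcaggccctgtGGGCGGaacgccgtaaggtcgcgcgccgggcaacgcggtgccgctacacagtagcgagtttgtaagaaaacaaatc

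Of the 8 genes searched, CDC25A alone had an E2F octamer, in 1 of the 13 windows. The octamers searched were TTTCCCGC, TTTGGCGC, TTTCGCGC and TTTGCCGC, and 2.79% of 35116 windows of this length held any of them. Its TTTGGCGC begins 44 bases before the start, and CCAAT boxes on the other strand begin 58 and 110 bases before it. A CCAAT box was found in 6 of the 13 windows, against 32.0% of all windows, and a GC box in 10 of the 13, against 42.6%. By gene, 5 of the 8 had a CCAAT box and all 8 a GC box before at least 1 of their starts. The CCNE1 window held 7 GC boxes, 5 of them in the printed part, and no CCAAT box. None of the 13 windows held the cell cycle homology region (TTTGAA or TTCGAA), which 14.3% of all windows held. These matches describe letters in a window, they are not sites shown to be bound, and windows of the same gene are not independent.

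CFIm recognises UGUA in RNA, so the annotated 3′ ends were examined as well, in the transcript with the most distal end in GENCODE 29. TGTA occurred in the last 100 bases for 7 of the 10 genes, against 55.5% of 10637 tested genes with such an end. CCNE1, CDK2 and CDK6 held 2 copies each, and these 3 differed widely in fold change, from -2.001 to -0.01. The poly(A) signal AATAAA was in the last 50 bases for CCNE1, CCND3 and CDKN1B, against 64.2% of genes, and AATAAA or ATTAAA for 7 of the 10, against 79.2%. The signals of these 3 genes are shown, in capitals within 30 bases, since 2 of the genes fell and 1 rose.
CCNE1: tatccattttttAATAAAgataatactgtt
CCND3: agatgattgtgaAATAAAactggctttggc
CDKN1B: cattaagtaatcAATAAAgaaaacttccat
The 3′ untranslated region of the chosen transcript ran from 366 bases in CDKN2C to 10222 bases in CDK6, with a median of 1264 bases over the tested genes. The counts combine all ends of a gene, so the use of single ends was not measured.

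Other genes of the pathway were described by 4 lists, to be read against the 29.4% of all tested genes called higher and the 28.5% called lower, 57.9% in either direction. Of 8 tested genes among 12 other G1/S cyclins, kinases, inhibitors and phosphatases, 3 were higher and 4 lower (87.5% called), with a median log2 fold change of -0.43. The 3 that rose were the inhibitors CDKN1A, CDKN2A and CDKN2B. CDK1, the mitotic kinase, fell from 153 ± 36.2 to 62.4 ± 11.5 CPM (SD, n = 4 per group), a log2 fold change of -1.28 (edgeR, adjusted p = 0.000272). Counts irrespective of strand gave a median of -0.28 for this list.

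Among 26 regulators of CDK activity and of cyclin and inhibitor turnover, all tested, 6 were higher and 9 lower. These 15 make up 57.7% of the list, near the 57.9% of all tested genes. PKMYT1, a kinase that inhibits CDK1, fell by 1.67 on the log2 scale (edgeR, adjusted p = 5.64e-10). CKS1B, a CDK subunit that helps the ubiquitin ligase SKP2 recognise p27, fell from 248 ± 23.3 to 90.6 ± 8.97 CPM (SD, n = 4 per group), a log2 fold change of -1.45 (edgeR, adjusted p = 6.21e-13). FBXW7, the F-box protein that marks cyclin E for degradation, rose from 118 ± 3.52 to 247 ± 18.8 CPM (SD, n = 4 per group), a log2 fold change of 1.06 (edgeR, adjusted p = 1.25e-11). FBXO4, another F-box gene, rose by 0.68 (edgeR, adjusted p = 0.000992). The median of this list was 0.05, with a sign that changed under library-size scaling and other settings, so no direction is given for it.

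Of 12 tested genes among 13 pocket proteins and E2F/DP factors, 8 were lower and 2 higher (83.3% called, against 57.9% of all tested genes), with a median of -0.43. The number lower was 6 with DESeq2, 10 under library-size scaling and 6 to 9 when each library was left out in turn. RBL1, which encodes the RB relative p107, fell by 1.01 (edgeR, adjusted p = 0.000203), and TFDP1, the main dimer partner of E2F factors, by 0.82 (edgeR, adjusted p = 5.13e-07). E2F5 and TFDP2 were higher, at 0.57 and 0.26 (edgeR, adjusted p = 0.00425 and 0.00551). For E2F5 the value was 1.29 when strand was ignored. E2F4, E2F6, E2F7 and E2F8, named after their values were seen, were lower, at -0.26, -0.54, -0.75 and -1.11 (edgeR, adjusted p = 0.0385, 0.00784, 0.000528 and 0.000405). Of 11 tested transcription factors known to act on these genes, from a list of 12, 4 were higher and 5 lower (81.8% called, against the same 57.9%). FOXO1, an activator of CDKN1B, rose by 1.22 (edgeR, adjusted p = 1.07e-06) and SP3 by 0.45 (edgeR, adjusted p = 0.000352). FOXO3, of the same family and named after its value was seen, went the other way. It averaged 93.7 CPM with DMSO and 77.3 CPM with dTAGV1, a log2 fold change of -0.28 (edgeR, adjusted p = 0.00529). Whether either acted on CDKN1B here was not tested. FOXM1, a driver of mitotic genes, fell by 0.88 (edgeR, adjusted p = 0.000156), as did MEN1, which encodes menin, by 0.66 (edgeR, adjusted p = 3.67e-07). The median of this list, 0.06, changed sign under several settings.

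**Figure D5:**
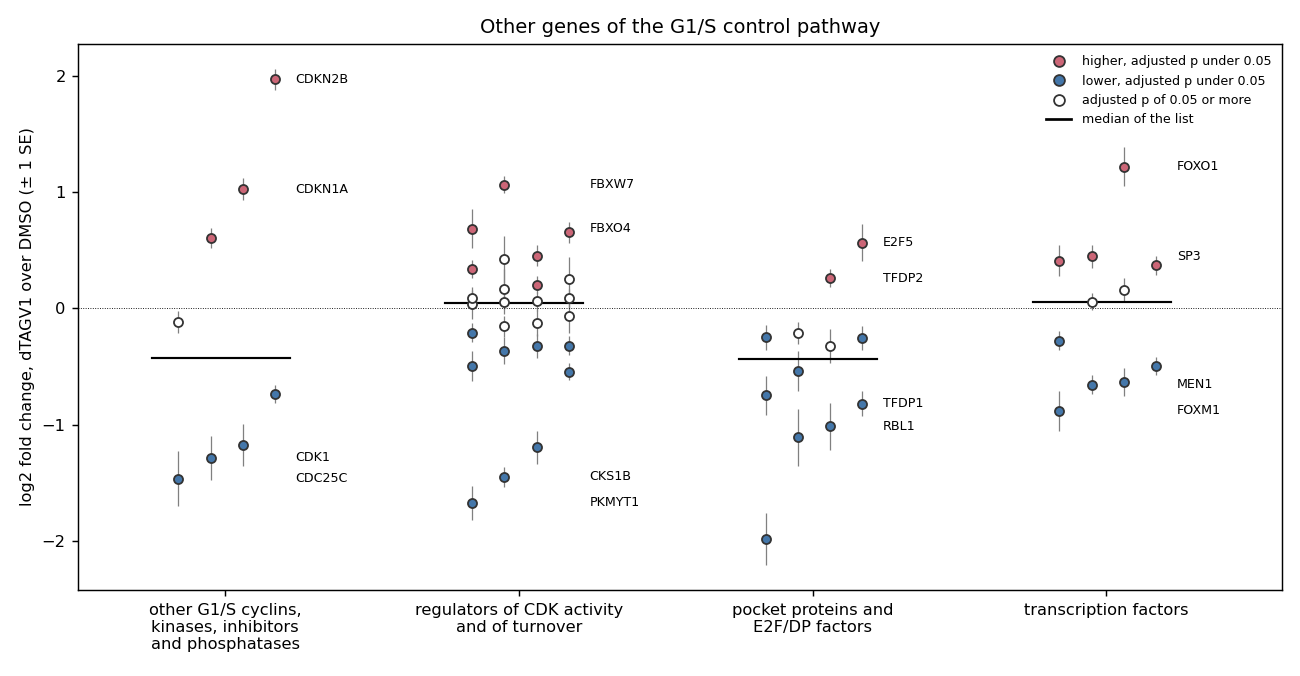
The log2 fold changes, dTAGV1 over DMSO, of the tested genes in 4 lists of other G1/S genes, with bars of 1 standard error and a line at each median. Labelled in each list are the 2 largest called increases and decreases among genes averaging at least 10 CPM, from PKMYT1 at -1.67 to CDKN2B at 1.97, and the unlabelled point at -1.98 is E2F1, which averaged less.

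For the 5 genes that fell more than 2-fold, the 2 most similar profiles were sought among 9247 other genes with a symbol and a mean of at least 10 CPM. Likeness was the root mean square difference of log2 CPM, each centred on its own mean, over the 8 libraries. Nearest to CCNE1 were SPC25 (0.17) and OIP5 (0.20), and nearest to CCNE2 were RFC5 (0.13) and MCM10 (0.15). ACYP1 (0.09) and RAD51D (0.10) lay nearest to CCND3. For CDK2 they were HECA (0.10) and CEP55 (0.11), and for CDC25A they were DNAJC9 (0.13) and STIL (0.14). The log2 fold changes of these 10 genes ran from -2.18 for OIP5 to -1.26 for RAD51D. All libraries share the treatment contrast, so this likeness includes the fold change itself.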

How the data were processed

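RNA, labelled as poly(A) RNA, was made into libraries with the Lexogen QuantSeq forward 3′ kit, per the labels' protocols. The submitters' processing notes name FastQC, fastp, STAR, HTSeq and DESeq2 and the build GRCh38, without versions, and the gene annotation is not given in the sources used here. The authors deposited raw counts of reads per gene, 1 table per library, irrespective of strand, on the gene's strand and on the opposite strand. The second of these was used here. Totals of reads given to no gene, 56.7% to 62.8% of each library, stayed out of library sizes and tests. A 3′ kit reads each transcript near its end, so levels were not divided by gene length, and reads beyond the annotated ends are lost. PCR copies cannot be recognised in the counts.

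Gene symbols were looked up by Ensembl identifier, coordinates were taken from GENCODE 29 and upstream sequences from RefSeq. Genes were tested with edgeR 4.0.16 in R 4.3.3 (filterByExpr, TMM scaling, robust quasi-likelihood F test), with Benjamini-Hochberg adjustment over all tested genes and a threshold of 0.05. CPM are per 1000000 counts after TMM scaling, so they give relative levels and not amounts of RNA per cell. Standard errors are the absolute log2 fold change divided by the square root of F. Ratios of counts used an added count of 0.5. Alternatives were DESeq2 1.42.0, limma-voom (limma 3.58.1), other scalings and filters, counts irrespective of strand, a replicate block and leaving out libraries. On simulated counts with 200 of 12618 genes changed, edgeR recovered 98.5% of genes changed by 2 on the log2 scale, 73.1% of those changed by 1 and 30.3% of those changed by 0.5, with 5 false calls. In the data 57.9% of tested genes were called, a far larger share, so these rates do not carry over to the data.

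Both groups carry replicate numbers 1 to 4, but deviations from the group means of same-numbered libraries correlated at 0.131, -0.0176, 0.0232 and 0.034, so the numbers were not taken to pair the libraries. Replicate pairs differed beyond sampling noise (chi-square over its degrees of freedom 1.89 to 5.65). The members and lists were chosen with earlier results of these data known. Genes named beside the 10 members are NUDT21, CDKN1A, CCND1, in each list the 2 largest called increases and decreases with a mean of at least 10 CPM, and the 2 nearest profiles of each member changed more than 2-fold. Named outside this rule, after their values were seen, are CCND2, CDC25B, CDKN2A, E2F1, E2F3, E2F4, E2F6, E2F7, E2F8, FOXO3, CCNA2, CDK7, CCNH and MNAT1. So are the overlapping genes INTS8, TSPAN31, MARCHF9 and PMEL. The opposite-strand test and the fit without both DMSO replicate 1 and dTAGV1 replicate 4 were added after seeing the data.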

Additional observations from a re-analysis of the deposited data

Results flagged for a closer look

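In a comparison of each library with the others of its group, over 32 groups of 4 values, 2 values stood apart by Dixon's criterion, where chance gives about 1 in 20 groups. CCNE2 was at 23.4 CPM in dTAGV1 replicate 4, while the other 3 dTAGV1 libraries lay between 10.8 and 11.5 CPM. CDK2 was at 43.9 CPM in dTAGV1 replicate 3, below the other 3 at 50.1 to 51.3 CPM.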

How the results depend on the processing

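Across 52 results, 836 alternative values were computed, and 801 of them kept their direction and side of the threshold, or stayed near the original count. For the 10 members, 163 of 166 values did so, and the other 3 are those of CDKN2C without DMSO replicate 2 (-0.51) and CDK6 without DMSO replicate 4 (0.05) or dTAGV1 replicate 1 (0.04). Settings in which a member was not tested are not among the 166. Counted irrespective of strand, CDK4 was not tested, and 7 members were called, 6 of them lower. Requiring 100 counts on average, 4120 genes were called, 2131 higher and 1989 lower, and 5 members, 4 of them lower, since CCNE1, CDC25A and CDKN2C were among the genes not tested. Under that filter the medians were -0.137 for the other G1/S cyclins, kinases, inhibitors and phosphatases, -0.267 for the pocket proteins and E2F/DP factors (1 higher, 4 lower), -0.144 for the regulators and -0.13 for the transcription factors. Library-size scaling lowered the share of calls that were higher from 50.8% to 43.8%, with medians of -0.028 for the regulators and -0.021 for the transcription factors. The latter median was -0.125 with DESeq2, -0.134 without a filter and 0.091 irrespective of strand. Strand-blind counts also gave a median of -0.279 for the other G1/S genes. With the same counts the CDK4 to CDK6 log2 ratio differed between groups by 0.331, from the 1 to 4 CDK4 reads left. An added count of 5 gave a difference of 0.046 in the CCNE1 to CDK2 log2 ratio. Without both DMSO replicate 1 and dTAGV1 replicate 4, medians were 0.008 for the regulators and 0.005 for the transcription factors, and 8 members were called. Unless stated, the cause was not tested.

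Leaving out each library in turn called 7 to 8 members. The medians ran from -0.017 to 0.05 for the regulators and from 0.015 to 0.064 for the transcription factors. CDK6 ran from -0.088 to 0.054. Log2 ratios differed by -0.617 to -0.434 for CCNE1 to CCNE2, -0.655 to -0.371 for CDKN2C to CDKN2D, -0.326 to 0.09 for CCNE1 to CDK2, 2.669 to 2.857 for CDKN1B to CDK2 and -1.337 to -1.194 for CCND3 to CDK6. With the replicate number as a block, 7434 genes and 8 members were called, and no call of a member changed. The exact sign-flip test of the ratios over replicate numbers cannot give a p below 0.125. Precision is limited for CCNE1, CCNE2, CDC25A and CDKN2C by counts as low as 19 per library.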

Other observations

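E2F1, an E2F factor tied to S-phase entry, averaged under 10 CPM and so fell outside the naming rule. It is given here after its value was seen. It had 46 to 66 counts per DMSO library and 10 to 18 per dTAGV1 library, or -1.98 ± 0.22 as log2 fold change (SE; edgeR, adjusted p = 4.45e-08). E2F3, also named after its value was seen, was more abundant, at 94.4 ± 10.8 CPM with DMSO and 81.4 ± 6.50 CPM with dTAGV1 (SD, n = 4 per group). Its log2 fold change of -0.21 did not pass (edgeR, adjusted p = 0.0540), and its groups overlapped. CCNA2, the cyclin that follows cyclin E as the partner of CDK2 in S phase, was also chosen after its values were seen. CCNA2 fell from 60.6 ± 14.1 to 26.6 ± 6.58 CPM (SD, n = 4 per group), a log2 fold change of -1.17 (edgeR, adjusted p = 5.68e-05). The subunits of the CDK-activating kinase, CDK7, CCNH and MNAT1, had log2 fold changes of 0.25, 0.035 and 0.09, and none passed the test (edgeR, adjusted p = 0.272, 0.825 and 0.423). MARCHF9, whose gene overlaps the 5′ side of CDK4 on the other strand by 916 bases, fell by 1.42 on the log2 scale (edgeR, adjusted p = 2.04e-08), while TSPAN31 at the 3′ side rose.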
